A study of Mus musculus with 4 samples.

Results

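The dystrophin complex joins the cytoskeleton of a muscle fibre to the matrix outside it, and 8 of its genes were followed here: Dmd, Utrn, Dag1, Sgca, Sgcb, Sgcd, Dtna and Nos1. In the mouse these lie on chromosomes X (Dmd), 10 (Utrn), 9 (Dag1), 11 (Sgca and Sgcd), 5 (Sgcb and Nos1) and 18 (Dtna). They were taken by name out of 32868 gene names in the per-library files, each is held there as a single row, and all 8 passed the filter that left 10690 genes for testing. The RNA came from whole tibialis anterior, which lifts the foot, of C57BL/6 mice at postnatal day 21. By its title the series is about the need of young muscle for neurofibromin (Nf1), the protein that switches off the GTPase Ras. The group called Het has the genotype Nf1flox/+/Myf5+, so its animals already carry 1 floxed allele, and the group called Nf1-KO has the genotype Nf1flox/flox/Myf5+. Myf5+ is taken here as a Cre recombinase driven by Myf5, a gene of muscle precursors, as in what is known of the study; the labels do not spell it out. There is no group without a floxed allele or without Myf5+. Each group has 2 libraries. Whether they are separate animals is not stated, so p-values measure only the spread between these libraries, which may be technical.

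Dystrophin, the product of Dmd, binds actin at one end and dystroglycan at the other. Dystroglycan (Dag1) crosses the membrane and holds laminin outside, and the sarcoglycans (among them Sgca, Sgcb and Sgcd) form a ring beside it. Utrophin (Utrn) is the paralog of dystrophin and in adult muscle sits mainly at the neuromuscular junction. Alpha-dystrobrevin (Dtna) and the syntrophins bind dystrophin inside the cell. The syntrophins anchor neuronal nitric oxide synthase (Nos1), the enzyme that makes nitric oxide under the fibre membrane, where it acts on blood flow and contraction through guanylate cyclase and cyclic GMP. In mice, the enzyme is more abundant in fast than in slow fibres.

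Of the 8 genes, Nos1 differed most by far, and the structural core of the complex moved little. Nos1 fell by 52.5% in Nf1-KO, Dtna was 21.4% higher, Dmd was 11.9% higher and Sgcd fell by 11.3%, each relative to the other genes of the same libraries. Utrn, Dag1, Sgca and Sgcb did not pass the test. A gene is called here when its adjusted p in limma, a linear model that shares variance across genes, is under 0.05 over all 10690 genes. By that rule 4 of the 8 genes were called, 2 higher and 2 lower. Over all tested genes the share called was 50.3%, with 24.9% higher and 25.4% lower, so the number of members called is close to the background and is no result about the complex. The median log2 difference of the 8 genes was -0.04.

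The values are read as RPKM, a read count divided by gene length and by depth. Steps between the low values gave estimated depths of 36500000 and 58100000 reads for Het and 47000000 and 51000000 reads for Nf1-KO, so the depths of the groups overlapped. The 8 genes were well covered: in the authors' deposited table their mean normalized counts were between 1664 (Sgcd) and 11886 (Dag1). The deposited values as a whole sat slightly higher in Nf1-KO, by a median of 0.07 on the log2 scale, and the libraries were scaled to remove that shift. Scaling decides the direction of small differences: it gave 2661 higher and 2720 lower genes, against 3760 higher (35.2%) and 1883 lower (17.6%) with the values as deposited. Nf1 itself read 1.09 and 1.01 RPKM in Het and 0.89 and 0.85 RPKM in Nf1-KO, with a log2 difference of -0.18 and a limma adjusted p of 0.041 (0.094 with the values as deposited). At this low level the added 1 RPKM shrinks the difference, and the authors' deposited table gave -0.38 with an adjusted p of 0.00258.

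Sequences before annotated starts are shown for Dmd, which has distant annotated starts but a single value, and for Sgca, the most abundant member. They come from RefSeq on build GRCm38.p6, while the submitters' processing notes name mm9, so the coordinates are not those of the authors' alignment. Each is the 250 bases before the start, 5′ to 3′ on the gene's strand, and capitals mark E-boxes (CANNTG, which reads the same on both strands), the kind of site that myogenic factors bind. The first is Dmd at chrX:82948620-82948869 on the plus strand, before the annotated start of the full-length transcript. The second is Dmd at chrX:85048045-85048294 on the plus strand, before a start far inside the gene that gives short products. The third is Sgca at chr11:94976328-94976577 on the minus strand.
Dmd, upstream start: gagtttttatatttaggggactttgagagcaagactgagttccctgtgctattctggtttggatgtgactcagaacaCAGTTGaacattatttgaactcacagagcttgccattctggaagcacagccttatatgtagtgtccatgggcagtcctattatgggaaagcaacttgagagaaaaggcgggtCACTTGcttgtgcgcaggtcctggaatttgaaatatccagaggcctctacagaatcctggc
Dmd, internal start: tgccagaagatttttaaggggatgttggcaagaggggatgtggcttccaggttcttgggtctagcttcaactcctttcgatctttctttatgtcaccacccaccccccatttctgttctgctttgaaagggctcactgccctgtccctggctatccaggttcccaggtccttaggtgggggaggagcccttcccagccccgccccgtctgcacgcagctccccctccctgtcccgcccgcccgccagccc
Sgca: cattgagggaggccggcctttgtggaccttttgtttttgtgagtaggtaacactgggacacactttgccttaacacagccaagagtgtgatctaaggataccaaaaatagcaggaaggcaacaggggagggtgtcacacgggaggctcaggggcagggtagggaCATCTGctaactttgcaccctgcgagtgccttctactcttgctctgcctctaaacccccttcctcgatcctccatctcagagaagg

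The window before the upstream Dmd start holds 2 E-boxes and has a GC content of 45.2%, and the window before the internal start holds 0 and has a GC content of 60.0%. The Sgca window holds 1 E-box. Of 32851 such windows, 66.2% hold at least 1 E-box, with a median of 1, so a match says little by itself. The files give 1 value for Dmd and do not separate transcripts by start, so whether the internal start was in use in these libraries is not shown. For Nos1 the RefSeq start coincides with the edge of a later exon in 4 GENCODE transcripts, so the bases before it are not shown as a promoter. GENCODE lists 4 coding starts for Nos1, and these data do not show which was in use.

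**Figure D1:**
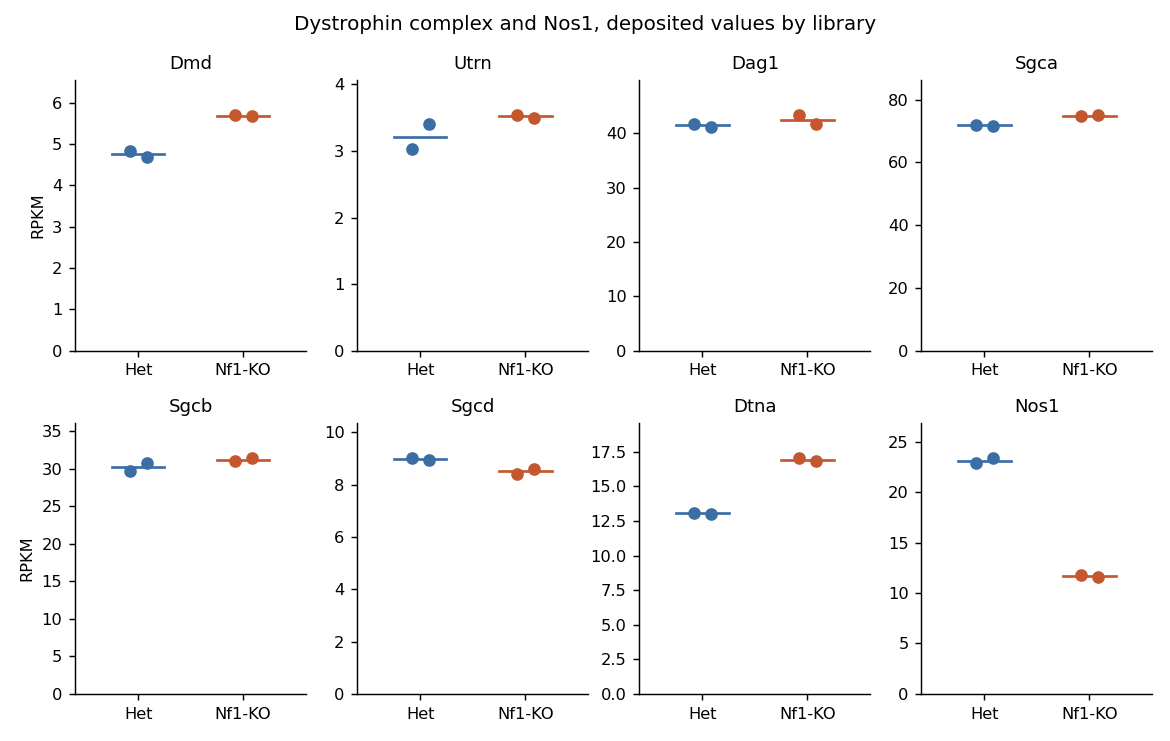
Deposited RPKM of the 8 genes in each of the 4 libraries (points), with the group mean as a bar; each axis starts at 0. Nos1 reads 22.86 and 23.35 in Het and 11.8 and 11.62 in Nf1-KO, Dtna and Dmd lie higher in Nf1-KO by smaller steps, and the other 5 genes show the smallest relative gaps.

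Nos1 was the member that changed most. In Het its level was 22.86 and 23.35 RPKM, and in Nf1-KO it was 11.8 and 11.62 RPKM, with means of 23.1 ± 0.346 and 11.7 ± 0.127 (SD, n = 2). Both Nf1-KO libraries lay far below both Het libraries, and the gap was many times the spread within either group. The log2 difference was -1.01 (SE 0.032), its 95% interval was -1.09 to -0.94, and the limma adjusted p was 2.8e-06. Nos1 ranked 96 among the 10690 tested genes by the size of its fall on the log2 scale with 1 RPKM added. On that scale, which shrinks the falls of low genes, 0.889% of genes fell further. In the authors' deposited table the log2 fold change of Nos1 was -1.09 and its adjusted p 1.23e-210. The call held under each of 13 alternative settings, between -1.07 and -0.92. Among all gene names ordered by level, Nos1 went from place 1481 in Het to place 2711 in Nf1-KO. An annotated gene on the opposite strand, Gm26995, shares exonic bases with Nos1, and the labels do not say whether the counting used strand.

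Genes of the myofibre also changed, in both directions. Of the 10 myofibre genes, 6 fell and 4 rose past the test, so 100% were called against 50.3% of all tested genes. Their levels were high and their spread small, so log2 differences as small as -0.17 (Ckm) and 0.17 (Des) passed. Their summed level as deposited was 54671 and 54760 RPKM in Het against 45649 and 45239 RPKM in Nf1-KO. Myh4, the myosin heavy chain of the fastest fibres, read 6767 and 7015 RPKM in Het and 3508 and 3428 RPKM in Nf1-KO, a log2 difference of -1.08. Actn3, an actinin of fast fibres, and Pvalb, a calcium buffer of fast fibres, had log2 differences of -1.35 and -1.72. The other fast myosins went the opposite way: Myh1 read 2354 and 2443 RPKM against 3712 and 3644 RPKM (0.52), and Myh2 read 448 and 471 RPKM against 851 and 829 RPKM (0.77). Mb, the myoglobin of oxidative fibres, rose by 0.71. The part of fibre type in the Nos1 value was not tested, and in whole muscle fewer fibres of a type cannot be told apart from less RNA per fibre.

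Dtna rose. Its product, alpha-dystrobrevin, binds dystrophin and the syntrophins and helps to keep the neuromuscular junction stable. It read 13.1 and 13.03 RPKM in Het and 17.03 and 16.83 RPKM in Nf1-KO, means of 13.1 ± 0.0495 and 16.9 ± 0.141 (SD, n = 2). The groups were well apart, and the log2 difference was 0.26 (SE 0.031, limma adjusted p 7.8e-04). On the log2 scale with 1 RPKM added, a larger rise was seen in 1592 of the 10690 tested genes. So the change of Dtna was far above the spread of these libraries. It lay between the 75th percentile of all tested genes (0.158) and the 95th (0.507). The authors' deposited table gave 0.27 with an adjusted p of 7.33e-11. Exonic bases of Dtna are shared with Gm47898 on the opposite strand. Its paralog Dtnb was low, between 0.14 and 0.19 RPKM in the 4 libraries, and fell below the filter.

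Dmd was slightly higher in Nf1-KO. It read 4.83 and 4.69 RPKM in Het and 5.7 and 5.67 RPKM in Nf1-KO, means of 4.76 ± 0.099 and 5.69 ± 0.0212 (SD, n = 2). The groups did not overlap, and the log2 difference was 0.14 with a 95% interval of 0.032 to 0.24 and a limma adjusted p of 0.039. That call is narrow: it was lost when any of the 4 libraries was left out, with adjusted p between 0.0863 and 0.148, and when the replicate number was fitted as a block (0.0532). In the authors' deposited table the log2 fold change of Dmd was 0.15 and the adjusted p 0.00582.

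Its paralog Utrn did not differ beyond the spread of the Het libraries. Utrn read 3.03 and 3.4 RPKM in Het and 3.54 and 3.5 RPKM in Nf1-KO. As deposited, both Nf1-KO libraries were above both Het libraries, but the scaled values overlapped. The log2 difference was 0.029 with a 95% interval of -0.11 to 0.17 and a limma adjusted p of 0.71, and it turned to -0.04 without Het replicate 1, the library with the lowest value. That interval holds for scaled values with 1 RPKM added, which shrinks differences at this level, so it sets no limit on utrophin mRNA itself. The log2 difference was 0.0373 with 0.1 RPKM added instead, and 0.102 with the values as deposited (limma adjusted p 0.191). In the authors' deposited table it was 0.02 with an adjusted p of 0.886.

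Dystroglycan and the sarcoglycans made up the abundant part of the complex and stayed near their Het levels. Sgca read 71.97 and 71.59 RPKM in Het and 74.63 and 75.07 RPKM in Nf1-KO, and Sgcb read 29.64 and 30.73 RPKM against 30.98 and 31.4 RPKM. Dag1 read 41.82 and 41.2 RPKM against 43.38 and 41.72 RPKM, so its groups overlapped as deposited. These 3 genes show how far a small difference depends on scaling. Their log2 differences were -0.034 for Sgca, -0.046 for Sgcb and -0.058 for Dag1 after scaling, with limma adjusted p of 0.23, 0.25 and 0.15. With the values as deposited the differences were 0.06, 0.046 and 0.035, so the direction of all 3 flipped and none should be read as higher or lower. The 95% intervals after scaling were -0.085 to 0.018 for Sgca, -0.12 to 0.026 for Sgcb and -0.13 to 0.014 for Dag1.

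Sgcd was the sarcoglycan among the members that fell. It read 9.01 and 8.94 RPKM in Het and 8.42 and 8.59 RPKM in Nf1-KO, so both Nf1-KO libraries lay below both Het libraries. The log2 difference was -0.15 (SE 0.036, limma adjusted p 0.013). The call was lost with the values as deposited (-0.07, adjusted p 0.151), without Het replicate 1 (0.0549), without Nf1-KO replicate 1 (0.0798) and without Nf1-KO replicate 2 (0.0519). The authors' deposited table gave -0.18 and an adjusted p of 0.0322. The same 4 genes, Dmd, Sgcd, Nos1 and Dtna, were called in the authors' deposited table with the same signs, where 31.6% of 13985 genes were called.

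Groups that do not overlap are common here and carry little weight alone. They were seen in 7 of the 8 genes as deposited and in 7 after scaling, against 77.3% and 76.3% of all tested genes.

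**Figure D2:**
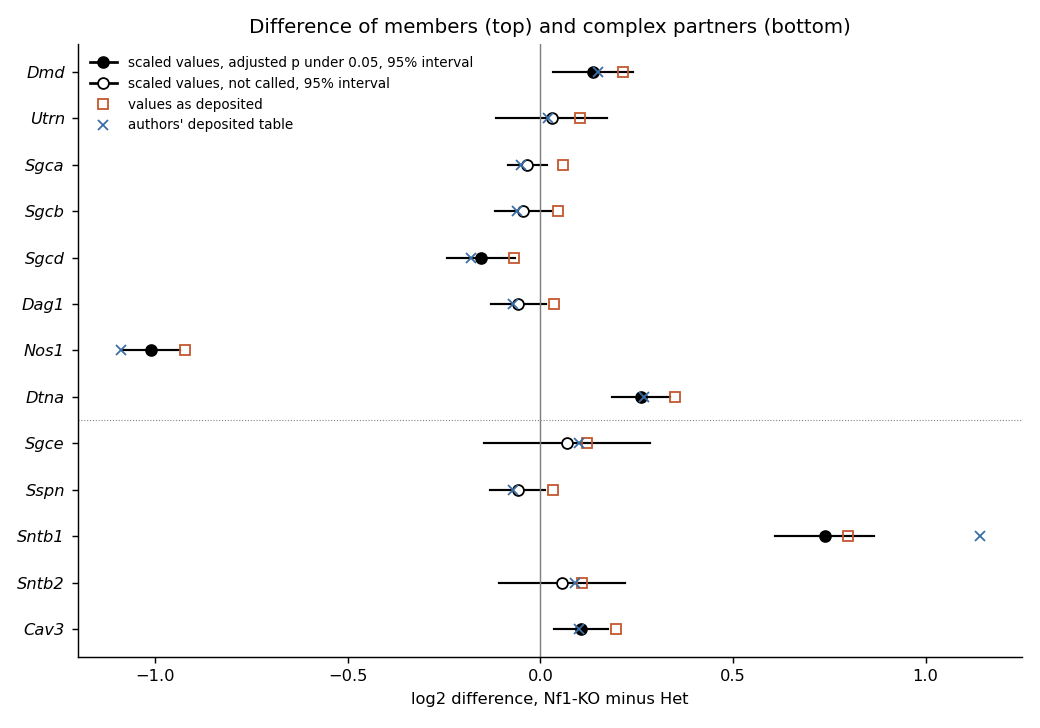
Log2 difference, Nf1-KO minus Het, for the 8 members (above the dotted line) and the 5 tested partners of the complex (below it). Circles with bars are the scaled fit with its 95% interval (filled where called), squares are the values as deposited, and crosses are the authors' deposited table. Nos1 is the lowest, near -1.01. Sntb1 is the highest at 0.74, a value shrunk by the added 1 RPKM, and its cross lies at 1.14.

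Because RPKM is per length, levels can be set beside each other within a library. In Het the order from high to low was Sgca, Dag1, Sgcb, Nos1, Dtna, Sgcd, Dmd and Utrn. In Nf1-KO the order was the same except that Dtna stood above Nos1. In both groups the libraries of neighbouring genes in this order did not overlap. The low place of Dmd and Utrn, which have the longest transcripts of the set at 14910 and 12382 bases in GENCODE, rests on the lengths the authors divided by, and these are not given in the sources used here.

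Ratios within a library do not depend on scaling. Nos1 stood at 4.73 and 4.98 times the level of Dmd in Het and at 2.07 and 2.05 times in Nf1-KO. Against Sgca the ratio was 0.318 and 0.326 in Het and 0.158 and 0.155 in Nf1-KO; this pair was chosen after its values were seen. Dtna to Dmd was 2.71 and 2.78 against 2.99 and 2.97, so those genes differed less from each other than either did from Nos1. Dag1 to Dmd was 8.66 and 8.78 in Het and 7.61 and 7.36 in Nf1-KO. Utrn to Dmd was 0.627 and 0.725 in Het and 0.621 and 0.617 in Nf1-KO, with the Het values wide apart and 1 of them close to the Nf1-KO pair. Among the sarcoglycans, Sgcb to Sgca was 0.412 and 0.429 against 0.415 and 0.418, which overlap, and Sgcd to Sgca was 0.125 in both Het libraries against 0.113 and 0.114. With 2 libraries against 2, an exact permutation test gives a p of at least 0.33, so these ratios are given as values only.

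**Figure D3:**
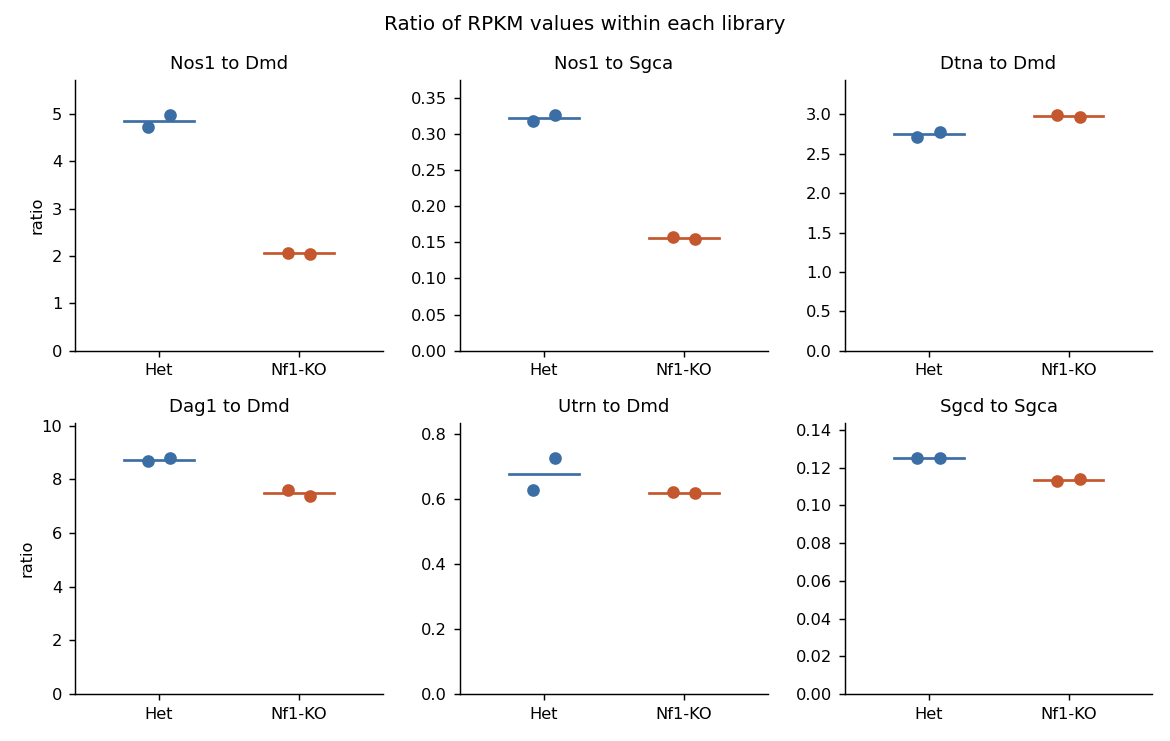
Ratio of the RPKM of a pair of genes within each library (points), with the group mean as a bar; each axis starts at 0. The ratio of Nos1 to Dmd is 4.73 and 4.98 in Het and 2.07 and 2.05 in Nf1-KO, and that of Utrn to Dmd has widely spaced Het values.

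Of 9 further genes of the complex reported here, 5 were tested, 2 were called higher and 3 did not pass. With so few genes, 40% called is close to the 50.3% of all tested genes. Their median log2 difference was 0.069, against 0.00041 over all tested genes. Sntb1, a syntrophin of the beta type, rose from 1.14 and 1.19 RPKM to 2.8 and 2.73 RPKM. The log2 difference was 0.74 (limma adjusted p 8.8e-05), but at this low level the added 1 RPKM shrinks it. In scaled RPKM the rise of Sntb1 was 122%. Its log2 difference was 1.09 with 0.1 RPKM added instead, and 1.14 in the authors' deposited table. Cav3, the caveolin of muscle, read 23.26 and 23.46 RPKM against 26.49 and 27.32 RPKM, a log2 difference of 0.10 (0.025). The Cav3 call was lost without Het replicate 1 (0.116), without Het replicate 2 (0.0726) and without Nf1-KO replicate 2 (0.0952), and its adjusted p in the authors' deposited table was 0.391. Sspn, the sarcospan that sits in the ring, read 24.06 and 24.54 RPKM against 24.54 and 25.19 RPKM and was not called (0.14). Sgce and Sntb2 were near 1 RPKM and were not called (0.55 and 0.52). Sgcz and Sntg1 were listed at 0 in all 4 libraries, and Sntg2 was at most 0.06 RPKM.

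Outside the fibre, genes of the matrix changed in both directions. The list of matrix ligands also holds laminin beta and gamma chains and Nid1, so not every product in it is bound by dystroglycan itself. Of its 10 genes tested, 5 fell, 1 rose and 4 did not pass, so 60% were called against 50.3% of all tested genes. Their median log2 difference was -0.155. Hspg2, the proteoglycan perlecan, fell from 15.43 and 15.58 RPKM to 11.48 and 10.65 RPKM (-0.54, limma adjusted p 1.4e-04). Lamc1, a laminin gamma chain, fell from 9.94 and 10.39 RPKM to 7.87 and 7.78 RPKM (-0.42, adjusted p 2.7e-04). Lama5 fell by 0.24 on the log2 scale (0.0093). Lama2, the alpha chain of muscle laminin, read 2.56 and 2.59 RPKM against 2.93 and 2.74 RPKM and did not pass (0.65). Bgn, the proteoglycan biglycan, rose from 10.32 and 9.76 RPKM to 17.84 and 17.82 RPKM (0.68, adjusted p 2.9e-05). Several of these genes are also made by connective tissue cells. Of 7 markers of these cells 5 rose past the test and 2 did not pass, so 71.4% were called. The summed level of those markers as deposited was 105 to 109 RPKM in Het and 156 to 158 RPKM in Nf1-KO. Col1a1 rose most among them, from 10.7 and 10.69 RPKM to 35.85 and 36.07 RPKM. The part of these cells in the matrix genes was not tested.

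The enzymes that build the sugar chain of dystroglycan changed little. Of 16 reported here, 13 were tested, 2 rose, 1 fell and 10 did not pass, so 23.1% were called against 50.3% of all tested genes. The median log2 difference was -0.027, and 0.020 with the values as deposited. Tmem5, now called Rxylt1, a xylosyltransferase of that chain, fell from 15.18 and 15.22 RPKM to 12.83 and 13.42 RPKM (-0.29, limma adjusted p 8.6e-04). Dpm2 and Dpm3, subunits of the enzyme that supplies mannose, were higher by 0.28 and 0.27 on the log2 scale (0.016 and 0.030). Those calls were unstable: Dpm2 was not called without Het replicate 1 (0.0902), and Dpm3 was not called without Het replicate 2 (0.12). Neither was called without Nf1-KO replicate 2 (0.0632 and 0.12) or in the authors' deposited table (0.263 and 0.428).

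Genes at the sarcolemma and the costamere, the site where the complex meets the contractile apparatus, changed in both directions. Of 19 listed, 17 were tested, 8 rose, 7 fell and 2 did not pass, so 88.2% were called against 50.3% of all tested genes. The median log2 difference was 0.072, and 0.164 with the values as deposited. Synm, an intermediate filament protein that binds dystrophin and desmin, showed the largest fall, from 145.93 and 149.64 RPKM to 87.41 and 84.79 RPKM (-0.87, limma adjusted p 2.5e-06). Its exons overlap those of Ttc23 and Gm45102 on the opposite strand. Dysf, the membrane repair protein dysferlin, fell from 9.33 and 8.99 RPKM to 6.82 and 6.49 RPKM (-0.49, adjusted p 2.1e-04). Ank3, an ankyrin, fell by 0.26 on the log2 scale (0.0032). Itga7, the alpha subunit of the laminin-binding integrin of muscle, rose from 14.39 and 14.7 RPKM to 22.98 and 22.5 RPKM (0.52, adjusted p 4.3e-05), and its exons overlap those of Mettl7b on the opposite strand. Its partner Itgb1, named after its values were seen, fell from 44 and 42.64 RPKM to 39.98 and 40.66 RPKM (-0.19, adjusted p 0.0016). Anxa1 and Anxa2, calcium-dependent membrane-binding proteins, rose by 0.48 and 0.37 on the log2 scale (0.0018 and 0.0020). Immune cells also make annexins. The 10 immune markers summed, as deposited, to 15.5 and 16.0 RPKM in Het and to 38.7 and 39.0 RPKM in Nf1-KO. Adgre1 was listed at 0 in all libraries, and 6 of 6 tested markers were higher, against 24.9% of all tested genes. Lyz2, with 7.47 and 7.38 RPKM against 24.35 and 24.62 RPKM, made up most of the sum in Nf1-KO. The part of immune cells in the annexin values was not tested.

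Around Nos1, genes of nitric oxide signalling were called in both directions. Of 15 listed, 10 were tested, 3 rose, 3 fell and 4 did not pass, so 60% were called, a share near the 50.3% of all tested genes. The median log2 difference was 0.010. Nos2, the inducible synthase, was low and fell from 1.92 and 1.86 RPKM to 1.03 and 0.95 RPKM (-0.59, limma adjusted p 2.9e-04). At so low a level the log2 value depends on the pseudocount: Nos2 fell by 50.9% in scaled RPKM, which is near the 52.5% of Nos1, its log2 difference was -0.957 with a pseudocount of 0.1, and it was -1.04 in the authors' deposited table. Nos3, the endothelial synthase, read 1.77 and 1.7 RPKM against 1.7 and 1.78 RPKM, and its groups overlapped (0.41). Nos1 thus accounted for the highest synthase level in every library, also after its fall. Ddah1, which clears a natural inhibitor of the synthases, fell from 2.41 and 2.74 RPKM to 1.57 and 1.67 RPKM (-0.51, adjusted p 0.0011). Nosip fell by 0.20 on the log2 scale (0.0093), but not with the values as deposited (0.0654) or without Nf1-KO replicate 2 (0.0547). Downstream, Prkg1, the kinase that cyclic GMP activates, rose from 8.54 and 8.7 RPKM to 12.9 and 13.42 RPKM (0.47, adjusted p 1.3e-04). The guanylate cyclase subunits Gucy1a3 and Gucy1b3 were between 1.53 and 1.99 RPKM and were not called (0.97 and 0.82). Asl, an enzyme of arginine supply, was higher by 0.25 (0.018), a call lost without Het replicate 2 (0.0757) or Nf1-KO replicate 1 (0.0719). Dynll1, a light chain that binds the synthase, was higher by 0.15 (0.032), and it was not called without Het replicate 1 (0.117), Het replicate 2 (0.0913) or Nf1-KO replicate 2 (0.148).

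**Figure D4:**
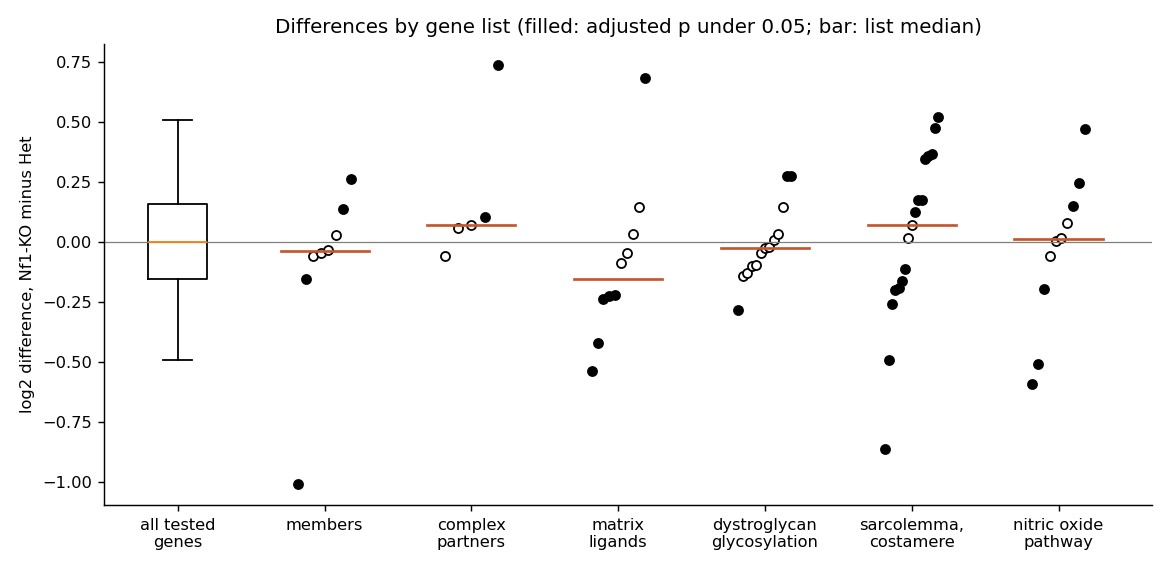
Log2 difference, Nf1-KO minus Het, of each tested gene by list (filled circles are called at an adjusted p under 0.05, the bar is the list's median), beside all 10690 tested genes as a box from the 25th to the 75th percentile with whiskers at the 5th and 95th. Nos1 at -1.01 and Synm at -0.87 lie below the whisker at -0.49, and Sntb1 at 0.74 and Bgn at 0.68 lie above the whisker at 0.51.

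Other cells of the muscle could hold some of these transcripts, and their markers were read in the same fit. The counts below stand beside 24.9% of all tested genes called higher and 25.4% called lower. Utrn is made by endothelial cells, whose 8 markers had a median log2 difference of -0.060, with 3 higher and 2 lower. Summed levels are of RPKM as deposited, before scaling, and so include the slight upward shift of Nf1-KO. For the endothelial markers they were 92.3 and 93.3 RPKM in Het and 103 and 101 RPKM in Nf1-KO. Smooth muscle and pericyte markers, cells that make Sgcd and Sgce, summed to 94.7 and 96.6 RPKM in Het and to 119.1 and 119.4 RPKM in Nf1-KO. Of the 7 tested, 2 rose, 1 fell and 4 did not pass, with a median log2 difference of 0.031. Rgs5, with 52.47 and 54.2 RPKM against 70.64 and 71.24 RPKM, made up most of that sum. Schwann cell markers, cells that also carry dystroglycan and utrophin, rose in 7 of 8 cases and summed to 18.1 and 18.7 RPKM against 38.8 and 37.3 RPKM. Satellite cell markers summed to 9.88 and 9.55 RPKM in Het and to 11.4 and 11.7 RPKM in Nf1-KO. Of the 5 tested, 3 rose and 2 did not pass, with a median log2 difference of 0.182. Fgfr4, 1 of those that rose, passed the filter only through Nf1-KO. Most of the sum was Cdh15, with 6.43 and 6.16 RPKM against 6.66 and 6.55 RPKM, which was not called. At the neuromuscular junction, where utrophin and alpha-dystrobrevin gather, 6 of 11 genes rose, 1 fell and 4 did not pass (Chrne, Chrnb1, Rapsn and Dok7). So 63.6% were called, against 50.3% of all tested genes. Chrna1, a subunit of the acetylcholine receptor, read 2.79 and 2.75 RPKM against 8.17 and 8.21 RPKM. Ache, which breaks acetylcholine down, went the other way, with 10.55 and 10.04 RPKM against 6.43 and 6.01 RPKM (-0.73). The part of these cells in the values of Utrn, Dtna, Dag1 and Sgcd was not tested.

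The genes with a pattern most like that of Nos1 were Phka1, Setd8, Itga4, P4ha1 and Thbs4, by the distance between centred log2 values over the 4 libraries (0.018 to 0.05). Phka1, a regulatory subunit of phosphorylase kinase in muscle, read 105.89 and 106.67 RPKM in Het and 56.48 and 55 RPKM in Nf1-KO. With 4 libraries this is a weak measure, since 29 genes lay within a distance of 0.1. The log2 values also have 1 RPKM added, which shrinks changes of low genes. Itga4 read 1.91 and 1.94 RPKM in Het and 0.47 and 0.48 RPKM in Nf1-KO. That is a larger relative fall than that of Nos1, so its place here rests on the added 1 RPKM.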

How the data were processed

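RNA of 4 libraries (2 Het, 2 Nf1-KO) was analysed from processed files. Per the submitters' processing notes, STAR 2.4.2a, DESeq2 and the build mm9 were used. Per the labels' protocols, libraries came from a TruSeq RNA kit. The annotation, the counting program and strand are not given in the sources used here. The authors deposited 1 RPKM value per gene and library, rounded to 2 decimals; the unit was read from the values. In the authors' deposited table, per the file headers, the signal is a mean of normalized counts, and beside it stand a log2 fold change, its test score, and raw and adjusted p-values.

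Of 34682 rows, 33 without a gene name were left out, and for names with several rows (1781 further copies) only the row of highest mean entered. The test was limma 3.58.1 (R 4.3.3), with a trended prior variance, of log2(RPKM + 1) in genes that reached 0.5 RPKM in 2 or more libraries. That scale understates changes of low genes. Scaling used a trimmed mean of log ratios, without weights, that dropped 30% of the ratios and 5% of the abundances at each end; the factors were 0.968, 0.967, 1.03 and 1.03. P-values are two-sided and Benjamini-Hochberg adjusted. Percent changes are of scaled RPKM, and summed levels of marker genes are of RPKM as deposited. Depth was the number of reads at which values in 127 to 183 genes with transcripts under 400 bases came closest to whole reads; it is an estimate. The script was tested on simulated data.

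The 8 genes and the lists were chosen with earlier results of these data known. Some list genes are not reported here and are in no list count. Named are the members, the complex partners, the 3 largest called changes in each direction of the other lists, and the 5 genes most like Nos1. Marker genes, Lama2, Nos3, Gucy1a3, Gucy1b3 and Itgb1 were named outside that rule, after their values were seen. Positions are from GENCODE M21 and RefSeq (GRCm38). Alternatives were pseudocounts of 0.1 and 0.5, other filters and scalings, no variance trend, a replicate block, summed copies and leaving out each library.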

Additional observations from a re-analysis of the deposited data

How the results depend on the processing

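The alternatives gave 934 values, and 857 of them matched the main value in sign and call (counts within 1.5 times); 43 lost and 7 gained a call, 20 changed sign and 7 counts moved further. The 857 matches include the within-library ratios with copies summed. These carry no call and could not differ, since each member is held as a single row. Nos1 and Dtna were called in all 13 settings. Dmd was no longer called without a filter (0.136, adjusted p 0.0561) or with the replicate block (0.136, adjusted p 0.0532), and ran from 0.115 to 0.148 when each library was left out. Sgcd lost it unscaled (-0.0697) and ran from -0.164 to -0.135 with each library left out. Same-numbered libraries were not paired by their values (correlation of same-numbered deviations -0.018 across genes); with the block 5343 genes were called, and of the genes tabulated only Dmd and Ank2 changed their call. The causes were not tested.

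Without scaling, the sign turned for Sgca (0.0596), Sgcb (0.0459), Dag1 (0.0346), Sspn (0.0318), Pomt1 (0.05), Pomt2 (0.0188), Pomk (0.0197), Lamb1 (0.0229) and Nos3 (0.0026); none of these was called. With each library left out, Utrn ran from -0.0403 to 0.0901, Sgce from -0.0391 to 0.172, Sntb2 from -0.0073 to 0.115, Dpm1 from -0.0358 to 0.0451, Ddah2 from -0.0412 to 0.189 and Plec from -0.0154 to 0.0462. Pomt1 ran from -0.06 to 0.0103, Gucy1a3 from -0.0114 to 0.0125, Gucy1b3 from -0.0196 to 0.0665 and Pomk from -0.101 to 0.0191. The 3 calls among dystroglycan glycosylation genes became 1 with no filter, 5 unscaled, and 1 to 4 with a library left out. The 2 calls among complex partners became 1 without the variance trend, and 1 to 2 with a library left out. Over all genes, calls ran from 4124 to 4521 with a library left out.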
